A study of Mus musculus with 6 samples.

Results

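The mouse genes of the canonical Notch receptors, Notch1, Notch2, Notch3 and Notch4, and of 4 of their ligands, Jag1, Jag2, Dll1 and Dll4, were read out in cultured aortic smooth muscle cells. They were taken by gene symbol from the deposited table of normalised read counts, where each symbol had 1 row, and make 8 of the 37309 genes listed. The cells, called ImSMC, were isolated from descending aorta, and the strain is Immorto, whose cells carry a conditional simian virus large T antigen that keeps them dividing in culture, so that both groups share it. One group of 3 libraries was kept for 3 days with 50 uM DAPT, an inhibitor of gamma-secretase, and the other group of 3 with its vehicle, DMSO. The labels do not say whether the cells are 1 clone, how many animals they came from, or whether the libraries of a group came from separate cultures, so that p-values measure only the spread between these libraries. The comparison asked how blocking gamma-secretase changed the cells' RNA, and the study's title names Jag1 as its ligand of interest.

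Notch receptors are single-pass proteins at the cell surface that are activated by Jagged or Delta ligands on a neighbouring cell. Binding lets an ADAM protease cut the receptor outside the membrane, gamma-secretase then cuts it within the membrane, and the freed intracellular part enters the nucleus and works with RBPJ to switch on genes such as Hes1. DAPT blocks the cut within the membrane, a step that acts on protein and not on the RNA measured here. Of the receptors, Notch3 is known as the one typical of arterial smooth muscle, Notch1 and Notch2 are expressed widely, and Notch4 is best known from endothelium. Jag1 is a main ligand of the vessel wall and Dll4 an endothelial ligand.

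The libraries held between 10702548 and 14503665 reads, and the 8 genes were on 4 chromosomes of the table (2, 3, 12 and 17). The label of the cells was checked against marker genes. Of 12 smooth muscle markers 11 passed the filter described below, which 14906 of the 37309 genes passed. So did 8 of 8 markers of adventitial fibroblasts and 6 of 8 mesothelial markers, so that passing it does not tell cell types apart. Myocd, the smooth muscle coactivator, had 1 read over the vehicle and 1 over the DAPT libraries. Myh11, smooth muscle myosin, was low at 49.2 ± 4.28 and 47.1 ± 3.99 normalised counts (mean ± SD, n = 3 per group, as throughout). Cnn1 was lower still, at 14.7 ± 5.97 and 7.54 ± 5.93. Other markers of the list had vehicle means of 8606 (Cald1), 3447 (Pdgfrb), 1619 (Tpm2) and 1078 (Smtn). Tagln was at 925, Acta2 at 520, Myl9 at 496, Lmod1 at 44.7 and Des at 24.7 in vehicle. Of 14 endothelial markers 7 passed the filter. Kdr was at 541 ± 18.1 and 529 ± 14.2, and the vehicle means of the others that passed ran from 11.3 (Esam) to 184 (Flt1). Of those that did not pass, Pecam1 and Cdh5 lay between 1.69 and 2.66 normalised counts in the group means. Sox17 had 0 reads in all 6 libraries, and Tie1 and Cldn5 had 1 read each.

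The regions before the gene starts are shown here for the 2 ligands that were lower under DAPT, Jag1 and Dll1, the latter with 2 RefSeq starts, and for the members with the most and the fewest CpG dinucleotides, Jag2 and Notch4. Each runs 5′ to 3′ on the gene's strand, from 250 bases before the start to 50 after it, in RefSeq's GRCm38.p6, with each CpG in capitals.
Jag1 (chr2:137116471-137116770, minus strand): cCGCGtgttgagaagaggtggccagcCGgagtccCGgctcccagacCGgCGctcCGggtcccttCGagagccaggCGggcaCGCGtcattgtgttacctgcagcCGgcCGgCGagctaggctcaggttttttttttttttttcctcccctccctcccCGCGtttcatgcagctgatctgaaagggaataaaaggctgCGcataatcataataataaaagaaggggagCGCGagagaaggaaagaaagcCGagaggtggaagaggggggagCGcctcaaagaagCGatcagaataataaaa
Dll1 (chr17:15376883-15377182, minus strand): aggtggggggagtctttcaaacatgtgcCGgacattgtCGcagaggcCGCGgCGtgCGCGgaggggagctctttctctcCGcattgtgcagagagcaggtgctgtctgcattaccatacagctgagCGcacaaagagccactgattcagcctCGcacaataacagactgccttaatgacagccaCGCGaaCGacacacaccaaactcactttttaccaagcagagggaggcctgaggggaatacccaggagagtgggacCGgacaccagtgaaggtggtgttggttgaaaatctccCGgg
Dll1 (chr17:15375774-15376073, minus strand): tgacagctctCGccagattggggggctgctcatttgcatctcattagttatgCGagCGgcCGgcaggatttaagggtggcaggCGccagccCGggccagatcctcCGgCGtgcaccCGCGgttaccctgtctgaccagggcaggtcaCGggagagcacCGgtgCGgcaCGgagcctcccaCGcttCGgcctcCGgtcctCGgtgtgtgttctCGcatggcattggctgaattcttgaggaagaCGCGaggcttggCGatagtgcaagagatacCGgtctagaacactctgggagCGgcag
Jag2 (chr12:112929446-112929745, minus strand): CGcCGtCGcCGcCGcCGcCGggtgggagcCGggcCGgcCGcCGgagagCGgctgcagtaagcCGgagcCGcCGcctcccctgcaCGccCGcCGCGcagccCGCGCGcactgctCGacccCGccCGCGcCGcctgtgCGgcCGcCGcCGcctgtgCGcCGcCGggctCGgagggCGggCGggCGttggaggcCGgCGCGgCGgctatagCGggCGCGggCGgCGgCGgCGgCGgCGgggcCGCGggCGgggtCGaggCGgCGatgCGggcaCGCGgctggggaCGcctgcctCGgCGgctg
Notch4 (chr17:34564045-34564344, plus strand): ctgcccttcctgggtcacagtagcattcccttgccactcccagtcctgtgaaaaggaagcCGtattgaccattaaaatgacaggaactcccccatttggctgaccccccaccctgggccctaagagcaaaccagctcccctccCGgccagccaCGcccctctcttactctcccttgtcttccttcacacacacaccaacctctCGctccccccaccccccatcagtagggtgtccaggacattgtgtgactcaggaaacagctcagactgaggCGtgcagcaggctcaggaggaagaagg
All 8 members matched RefSeq by symbol, with 9 such windows in all. Jag2 held 63 CpG dinucleotides in its 300 bases, Notch2 41, Notch3 25, Notch1 23, Jag1 22 and Dll4 17. Dll1 held 15 and 24 at its 2 starts, in the order printed, and Notch4 held 5. Over all 32851 windows of the table the median was 7, with quartiles of 3 and 20, so that 8 of the 9 windows lay above the median and Notch4 alone below it. The letters TGGGAA, the core that RBPJ is known to bind, were sought on both strands. They were found in 0 of the 9 windows and in 25.6% of all windows, which says only that these letters are not in these stretches.

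Among the receptors Notch1, Notch2 and Notch3 were abundant and Notch4 was near the limit of detection. Normalised counts of Notch1 were 2960, 2723 and 2556 in vehicle replicates 1 to 3 and 2606, 2782 and 2572 in DAPT replicates 1 to 3. Notch2 was at 1832, 1704 and 1494 normalised counts in vehicle and 1807, 1690 and 1740 under DAPT. Vehicle replicate 3 was the lowest vehicle library for both, and for both genes the groups overlapped. Notch3 was at 1858, 1871 and 1876 normalised counts in vehicle and 1901, 1867 and 1815 under DAPT. Its 6 values lay closest together of all members for which reads were plentiful, and the DAPT values enclosed the vehicle values. Notch4 was at 16.0, 21.6 and 16.8 normalised counts in vehicle and 19.9, 20.0 and 13.9 under DAPT, from 54 reads in each group, and its groups overlapped.

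Among the ligands Jag1 was the most abundant, Jag2 was intermediate, Dll1 was low and Dll4 was all but absent. Jag1 was at 1217, 1256 and 1196 normalised counts in vehicle and 1136, 1089 and 1110 under DAPT. Every DAPT library lay below every vehicle library. Jag2 was at 169, 192 and 220.5 normalised counts in vehicle and 202, 203 and 201 under DAPT, so that the DAPT libraries lay within the vehicle range. Dll1 was at 21.6, 22.8 and 16.8 normalised counts in vehicle and 8.53, 8.42 and 8.91 under DAPT, again with no overlap. Its values rest on 23, 19 and 19 reads in vehicle and 9, 8 and 9 reads under DAPT. Dll4 had 0, 1 and 1 reads in vehicle and 0, 1 and 0 under DAPT, under the limit of 3 reads set over a group, so no fold is given.

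**Figure D1:**
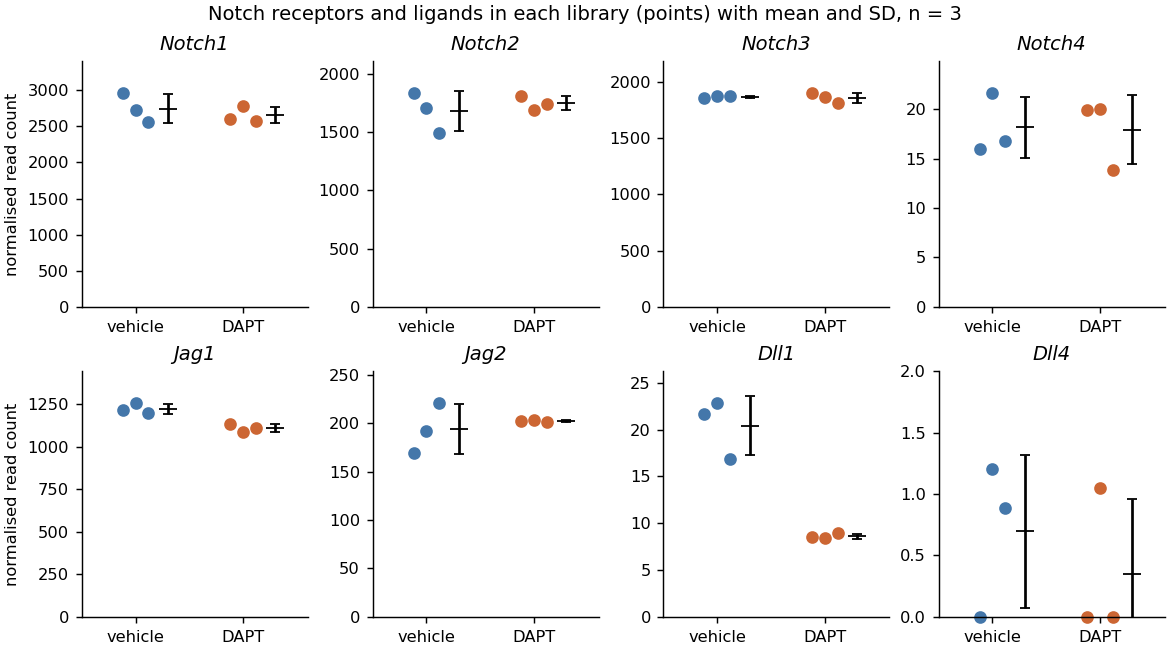
Normalised read count (y axis, from 0, with its own scale in each panel) of the 8 genes in each vehicle and DAPT library (points, replicates 1 to 3 from left to right), with the mean and SD of each group (n = 3) beside them. The Jag1 and Dll1 groups do not overlap, and the groups of the other 6 genes do.

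Between genes, levels are given as normalised counts per kilobase, since longer transcripts yield more reads. With the gene lengths of the deposited table, Notch3 was highest in vehicle, at 232 ± 1.20 per kilobase. Jag1 followed at 180 ± 4.47, Notch2 at 152 ± 15.4 and Notch1 at 139 ± 10.3 per kilobase. Jag2 was at 47.9 ± 6.32, Dll1 at 3.82 ± 0.594, Notch4 at 1.54 ± 0.258 and Dll4 at 0.178 ± 0.159 per kilobase. Only Notch2 and Notch1 overlapped in their 3 vehicle values among neighbours of this order. Among the 14903 tested genes with a length, Notch3 stood at the 76.7th percentile of the vehicle level per kilobase, Jag1 at the 70.4th, Notch2 at the 65.7th, Notch1 at the 63.2nd, Jag2 at the 34.6th, Dll1 at the 3.43rd and Notch4 at the 0.651st.

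The order of the 3 abundant receptors depended on the length used. The deposited length of Notch1 is 19710 bases, 2.08 times the 9488 bases of its longest protein-coding transcript in GENCODE M21, whereas for Notch3 the lengths are 8044 and 8016 bases. For Notch4, Dll1 and Jag1 the deposited length is 1.78, 1.49 and 1.21 times that of the transcript, and for Jag2 it is 0.794 times. With the transcript lengths, an alternative chosen after the data were seen, Notch1 was highest at 289 ± 21.4 per kilobase. Notch3 then followed at 233 ± 1.21, Jag1 at 218 ± 5.43, Notch2 at 160 ± 16.3 and Jag2 at 38.0 ± 5.02 per kilobase, and no neighbours overlapped in vehicle. Dll1, Notch4 and Dll4 kept the last 3 places under both lengths. What the deposited length sums is not stated in the sources used here.

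**Figure D2:**
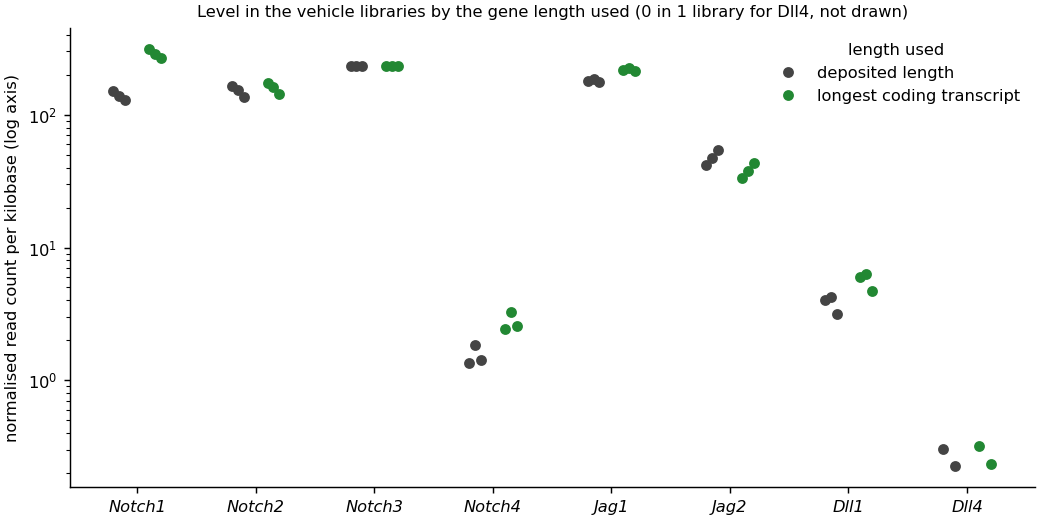
Normalised read count per kilobase (log y axis) in the 3 vehicle libraries for each gene, with the deposited gene length (grey) and with the longest protein-coding transcript of GENCODE M21 (green). Notch1 lies below Notch2, Notch3 and Jag1 with the first length and above them with the second, and Dll4 is at 0 in 1 library, which a log axis cannot show.

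As parts of the summed receptor level per kilobase (deposited lengths), Notch3 made 44.3% ± 2.29 in vehicle and 44.0% ± 0.231 under DAPT. Notch2 made 28.8% ± 1.63 and 30.1% ± 0.949, Notch1 26.5% ± 0.764 and 25.6% ± 1.01, and Notch4 0.295% ± 0.0510 and 0.290% ± 0.0523. The groups overlapped for each receptor. With transcript lengths Notch1 made 42.2% ± 0.934 and Notch3 34.1% ± 1.98 of the vehicle sum. Of the summed ligand level per kilobase (deposited lengths), Jag1 made 77.6% ± 2.20 in vehicle and 76.0% ± 0.489 under DAPT, and Jag2 20.7% ± 2.41 and 23.2% ± 0.418, with overlapping groups. The share of Dll1 was 1.65% ± 0.263 and 0.752% ± 0.0244, with no overlap. The summed ligand level was 0.409, 0.449 and 0.467 times the summed receptor level in vehicle replicates 1 to 3 and 0.409, 0.401 and 0.416 times in DAPT replicates 1 to 3, so that these groups overlapped too. These shares and ratios were not tested.

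**Figure D3:**
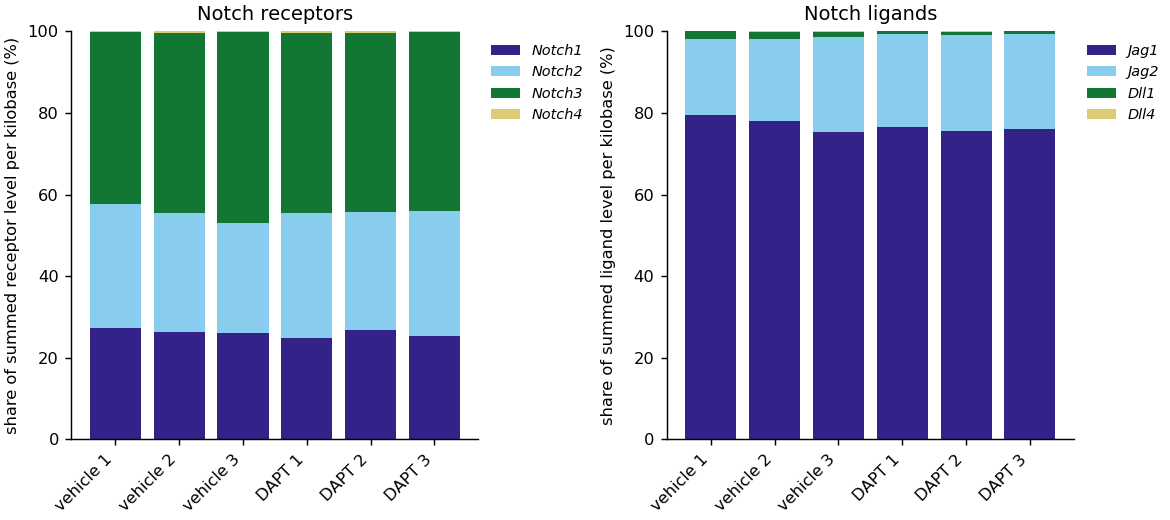
Share of each gene in the summed level per kilobase (deposited lengths) of the Notch receptors (left) and of the Notch ligands (right) in each library, in percent. Notch3 makes the largest part of the receptor bars and Jag1 of the ligand bars in all 6 libraries, while Notch4 and Dll4 are too thin to stand out.

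Under DAPT the ligands Jag1 and Dll1 were called lower, and no receptor passed the test. The test was limma on log2(normalised count + 1) across 14906 genes with a normalised count of at least 10 in at least 3 libraries, adjusted by Benjamini-Hochberg and called at an adjusted p below 0.05. Of the 8 genes 7 passed this filter and Dll4 did not. Of these 7, 2 were lower, 0 were higher and 5 did not pass, where 18.1% of all tested genes were called, 8.91% lower and 9.22% higher. The same 2 genes were those whose groups did not overlap, which 33.3% of all tested genes showed, 16.4% with DAPT lower. Dll1 passed the filter through its vehicle values alone, with all 3 DAPT values under 10. Its groups therefore could not overlap, and a call could only be lower. With 7 genes tested the count of 2 is read as a description of these genes and not as an excess. In the authors' deposited table neither Jag1 (adjusted p of 0.188) nor Dll1 (0.0684) lay below 0.05. The median log2 change was -0.02 over the 7 and 0.00090 over all tested genes, where the median size of a change was 0.0996.

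Jag1 fell by 9.10% in its mean normalised count, from 1223 ± 30.5 to 1112 ± 23.6, and the 95% interval of the fitted change ran from -14.3% to -3.57% (log2 change -0.14, SE 0.0412, limma adjusted p = 0.0207). It was lower in 3 of 3 DAPT libraries than in each vehicle library. The change is among the smaller ones called, since 329 of the 2703 called genes changed as little or less. The call was lost without vehicle replicate 2 (limma adjusted p = 0.103), without DAPT replicate 2 (0.101) and without DAPT replicate 3 (0.0660), and in edgeR (0.0646) and DESeq2 (0.298) on 5 libraries, which lack DAPT replicate 3 too, tools that called 13.0% and 7.46% of the genes they gave an adjusted p. In the authors' deposited table Jag1 had a log2 ratio of -0.14, a p of 0.0182 and an adjusted p of 0.188, and 6.19% of the genes given an adjusted p there lay below 0.05.

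Dll1, a Delta-type ligand, fell 2.37-fold, from 20.4 ± 3.18 to 8.62 ± 0.261 normalised counts (log2 change -1.14, SE 0.286, limma adjusted p = 0.00580, lower in 3 of 3 DAPT libraries). It entered the test only through its vehicle values, since all 3 DAPT values lay under 10, so it could be tested only because vehicle was high. Without a filter its adjusted p was 0.0170 over 22960 genes, of which 10.8% were called. The 3 DAPT values had a coefficient of variation of 3.03% where counting alone gives 34.0%, so their closeness says little about the spread between libraries. Over each group the reads were 61 (95% exact Poisson interval 46.7 to 78.4) and 26 (17.0 to 38.1), intervals that cover counting error only. They come from the same values that let Dll1 into the test, so their distance from each other is no further support. In the authors' deposited table Dll1 had a log2 ratio of -1.24, a p of 0.00470 and an adjusted p of 0.0684, and DESeq2 on 5 libraries gave it no adjusted p.

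For the receptors the intervals bound what the data allow. The 95% limma interval of Notch3 ran from -5.50% to 4.91% (log2 change -0.01, adjusted p = 0.938), that of Notch1 from -9.20% to 3.09% (log2 change -0.05, adjusted p = 0.521) and that of Notch2 from -3.06% to 12.5% (log2 change 0.06, adjusted p = 0.463). Jag2 had an interval of -8.20% to 19.4% (log2 change 0.07, adjusted p = 0.691). Notch4, with few reads, had a wide one, from -32.3% to 43.0% (log2 change -0.02, adjusted p = 0.969), so that the data allow any change within those limits. The fitted directions of these 5 genes were not stable, since each changed sign when some 1 library was left out.

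**Figure D4:**
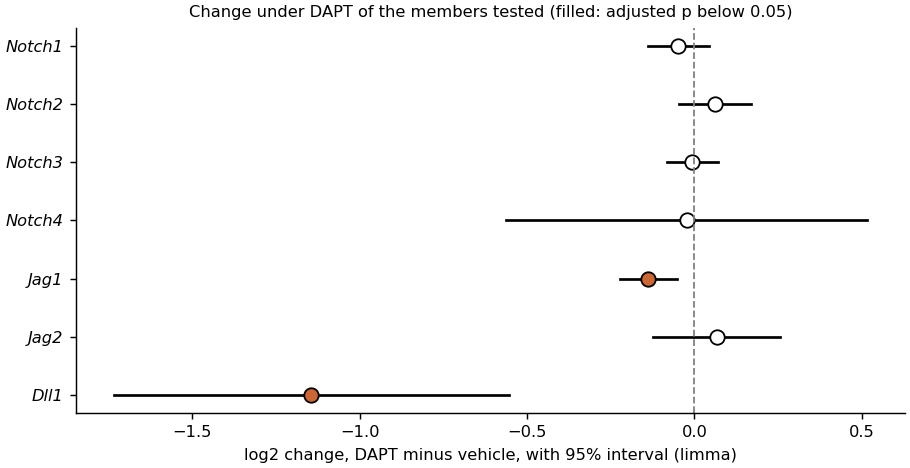
Log2 change, DAPT minus vehicle, of the 7 tested genes (x axis) with its 95% limma interval, filled where the adjusted p is below 0.05. The intervals of Jag1 and Dll1 lie below 0, those of the other 5 genes include 0, and that of Notch4 is about as wide as that of Dll1.

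The spread between libraries of 1 group is set here beside the spread that counting alone gives. In vehicle the coefficient of variation was 0.518% for Notch3 and 2.49% for Jag1, under the 2.32% and 2.87% that counting alone gives. It was 7.40% for Notch1, 10.2% for Notch2 and 13.2% for Jag2, against 1.92%, 2.46% and 7.26% from counting, and these differences from counting were not tested. Under DAPT it was 4.24% for Notch1, 3.37% for Notch2, 2.34% for Notch3, 2.13% for Jag1 and 0.499% for Jag2, where counting gives 1.94%, 2.39%, 2.32%, 3.00% and 7.02%.

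Some reads of the members may belong to neighbours. In GENCODE M21, 2 antisense genes overlap exons of Notch1 by 1068 and 414 bases, and it is not given whether the authors' counting used strand. These genes, 0610009E02Rik and Gm13568, were at 303 ± 26.5 and 66.6 ± 6.54 normalised counts in vehicle and at 300 ± 5.43 and 67.8 ± 6.95 under DAPT, and neither passed the test. Antisense genes also overlap exons of Notch3 by 488 bases and of Dll1 by 867 bases, and a gene on the same strand overlaps Notch2 by 541 bases. These 3 genes have no row in the deposited table, so reads of Dll1 and of its antisense partner cannot be told apart. Gm14207, antisense to Dll4 with 214 shared exon bases, has a row and was at 0 normalised counts in vehicle and a mean of 0.351 under DAPT.

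Markers of smooth muscle, the labelled cell, and of other cell types were followed beside the lower Jag1 and Dll1. The counts of these markers stand beside 8.91% of all tested genes called lower and 9.22% called higher. Of 8 mesothelial markers 6 were tested and 5 were lower, with a summed level of 3475 to 3553 normalised counts in vehicle and 1921 to 2064 under DAPT, while Krt8 had 0 reads in vehicle and 2 under DAPT. Of 8 markers of adventitial fibroblasts 6 were lower and 1 higher, with summed levels of 23490 to 25677 in vehicle and 23453 to 24682 under DAPT. Those sums are mostly Dcn and Ly6a, which moved in opposite directions. Dcn fell from 10989 ± 518 to 9985 ± 484, and Ly6a, the 1 higher marker, rose from 9435 ± 244 to 10868 ± 454. Pdgfra, Lum, Col14a1, Mfap5 and Clec3b were lower too. Of the 11 tested smooth muscle markers 5 were lower and 0 higher, with summed levels of 16531 to 17151 and 14746 to 15104. The lower ones were Acta2, Tagln, Myl9, Tpm2 and Pdgfrb. Of the 7 tested endothelial markers 0 passed, with summed levels of 832 to 891 and 828 to 871. Of 8 markers of leukocytes 3 were tested and 1, Cd68, was higher, with summed levels of 347 to 400.0 and 419.8 to 435, while Ptprc had 1 read and Cd3e 0 reads in all 6 libraries together. The part of any of these cell types in the ligand values was not tested. In such bulk libraries fewer cells of a type and less RNA per cell cannot be told apart.

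Of 62 other genes of the pathway, listed by role with earlier results of these data known, 61 were in the table and 49 were tested. Of these 49, 10 were lower, 5 higher and 34 did not pass, so that 30.6% were called, beside 18.1% of all tested genes (8.91% lower and 9.22% higher), and their median log2 change was -0.04. The count of 15 fell to 9 without DAPT replicate 2, where 12.5% of all tested genes were called, and to 8 without DAPT replicate 3, where 13.1% were. It was 8 in edgeR, beside 13.0% of all genes, and 6 in DESeq2 on 5 libraries, beside 7.46%.

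Among other ligands and ligand-like proteins 3 of 5 tested genes were lower, where 8.91% of all tested genes were. They were Mfap5, a microfibril protein also counted above among the fibroblast markers, at 164 ± 16.2 and 105 ± 8.76 normalised counts, Dlk1, a Delta-like protein that lacks the domain by which Delta binds Notch, at 1119 ± 110.5 and 586 ± 4.87 normalised counts (log2 change -0.93, limma adjusted p = 1.07e-11), and Nov, a secreted CCN protein that can bind Notch1, at 5603 ± 229 and 3398 ± 121 (log2 change -0.72, limma adjusted p = 4.25e-13). Among genes of receptor glycosylation and ligand trafficking 1 of 10 was higher and 0 lower, a share near the 9.22% of all tested genes called higher. It was Neurl3, of a family of ubiquitin ligases, at 70.7 ± 3.24 and 94.8 ± 4.28 normalised counts, a call lost under 5 of 16 alternatives. Mib1, the ubiquitin ligase that activates the ligands, was at 1676 ± 50.4 and 1750 ± 30.2 (adjusted p = 0.289), a gene chosen after its values were seen.

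Among the proteases that cut Notch and the other subunits of gamma-secretase, 2 of 10 were higher and 1 lower, where 9.22% and 8.91% of all tested genes were. Adam17 rose from 1711 ± 26.7 to 1959 ± 13.8 normalised counts (log2 change 0.20, limma adjusted p = 0.000344). Adam10, the main protease of ligand-dependent cleavage, rose from 3644 ± 105 to 3994 ± 118 (log2 change 0.13, limma adjusted p = 0.00912), a call lost under 4 of 16 alternatives. Ncstn, the nicastrin subunit of gamma-secretase, was lower, at 2757 ± 105 and 2558 ± 41.2 (log2 change -0.11, limma adjusted p = 0.0404), a call lost under 7 of 16.

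Among genes of the nuclear complex 3 of 12 were lower and 0 higher, where 8.91% of all tested genes were lower. Maml1, a coactivator of the Notch and RBPJ complex, fell from 1086 ± 28.9 to 951 ± 31.3 normalised counts (log2 change -0.19, limma adjusted p = 0.00278), a call lost in DESeq2 on 5 libraries. The related Maml2 was at 905 ± 63.4 and 812 ± 28.6 (log2 change -0.16, limma adjusted p = 0.0359), a call lost under 6 of 16 alternatives. Rbpj itself, chosen after its values were seen, was at 3543 ± 151 and 3552 ± 46.6 (adjusted p = 0.957).

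Among genes of receptor turnover 2 of 8 were higher and 1 lower, where 9.22% and 8.91% of all tested genes were. These 3 were of the Deltex family of ubiquitin ligases, whose member Dtx2 was at 368 ± 10.2 and 360.1 ± 15.9 normalised counts and did not pass (adjusted p = 0.777). Dtx3 fell from 1037 ± 62.4 to 885 ± 59.0 normalised counts (log2 change -0.23, limma adjusted p = 0.00268). Dtx3l rose from 3387 ± 83.6 to 3744 ± 56.9 (log2 change 0.14, limma adjusted p = 0.00329), a call lost in DESeq2 on 5 libraries, and Dtx4 from 2858 ± 84.7 to 3086 ± 41.1 (log2 change 0.11, limma adjusted p = 0.0272), a call lost under 7 of 16 alternatives. Of the 4 tested Notch targets 2 were lower and 0 higher, where 8.91% of all tested genes were lower. Hes1, a direct target, was at 319.8, 331 and 327 normalised counts in vehicle and 211, 199.9 and 223 under DAPT (log2 change -0.62, limma adjusted p = 6.35e-07), with no overlap. Myc was at 598 ± 6.44 and 535 ± 18.2 (log2 change -0.16, limma adjusted p = 0.0322), a call lost under 6 of 16 alternatives. The feedback inhibitor Nrarp was at 44.6 ± 8.57 and 44.5 ± 2.83 normalised counts (adjusted p = 0.972) and Cdkn1a at 13201 ± 226 and 12497 ± 127 (adjusted p = 0.0821). Neither passed, and both were named, like Dtx2 and Mfap5, after their values were seen. Hes5, Hey1, Hey2, Heyl and Gata3 lay under the filter.

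**Figure D5:**
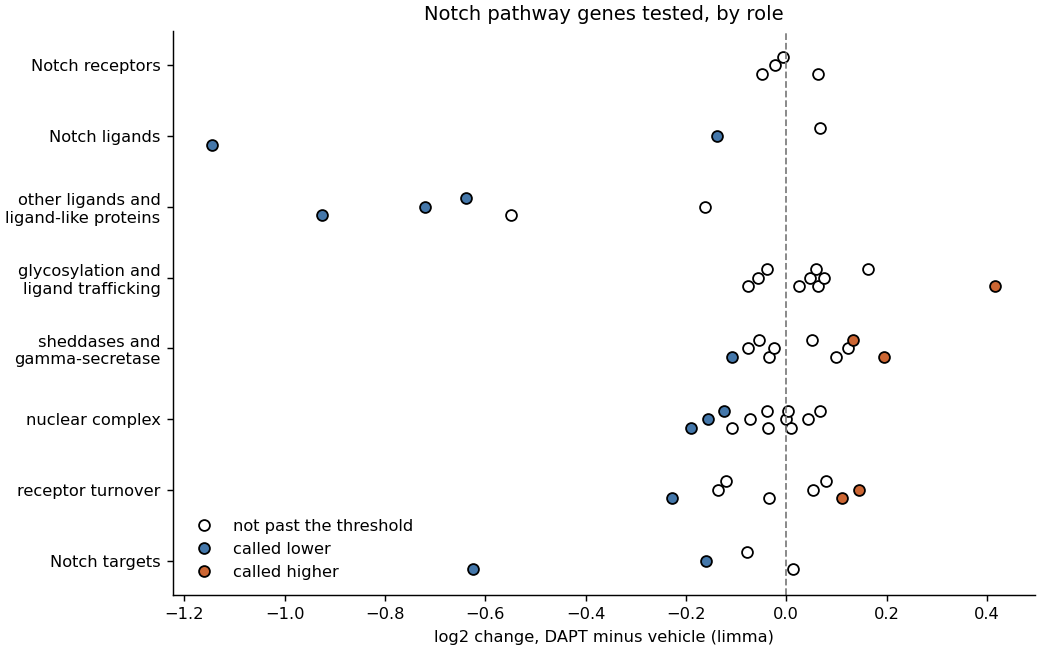
Log2 change, DAPT minus vehicle (x axis), of each tested Notch pathway gene by role, filled blue where called lower and orange where called higher at an adjusted p of 0.05. Ligands and ligand-like proteins hold most of the points below -0.5, and none of the 4 receptors is filled.

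For each of the 5 members with a mean of at least 100 normalised counts, the 3 genes most like it over the 6 libraries were found by Pearson's r of log2(normalised count + 1) among 11091 genes of that level. They are a description, since 6 libraries in 2 groups give high values of r to many genes by their number alone. For Jag1 they were St3gal2 (r = 0.998), Adamts10 (0.995) and Serinc5 (0.995), and St3gal2 was at a mean of 3393 normalised counts in vehicle and 3044 under DAPT. For Notch1 they were Pde7b (0.997), Herc1 (0.992) and Rpsa-ps4 (0.988), and for Notch2 Ranbp10 (0.987), Psen2 (0.984) and Samd1 (0.981). For Notch3 they were Gm5648 (0.985), Gnpat (0.972) and Psme2 (0.970), and for Jag2 Angptl2 (0.992), Eif1 (0.989) and Rps19-ps1 (0.989). Psen2, the catalytic presenilin of some gamma-secretase complexes, was at 294 ± 25.4 and 304 ± 3.62 normalised counts (adjusted p = 0.695).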

How the data were processed

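Groups and replicate numbers of the 6 libraries came from the sample labels. Columns C and I of the table were read as control and inhibitor, a reading of the letters that no label gives. The kit was TruSeq RNA, per the labels' protocols. The submitters' processing notes name TopHat2 2.0.4, HTSeq 0.5.4p3, DESeq 1.16.0 and build mm9 without roles. Annotation, filters and use of strand are not given. Per library the authors deposited a signal, the reads of a gene over a size factor, from which whole reads came out for 100% of values (tolerance 0.01 reads). The deposited log2 ratio, p-value and adjusted p-value are quoted as the authors'. Deposited RPKM is a mean per group, so levels per kilobase were computed per library from signal and length.

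limma 3.58.1 (R 4.3.3) was fitted with an intensity trend on log2(value + 1), two-sided, with no covariate. The pseudocount shrinks changes of low genes. edgeR 4.0.16 (quasi-likelihood, 1945 genes called) and DESeq2 1.42.0 used reads of 5 libraries. DAPT replicate 3 gave whole reads too, and they are counted in the read numbers printed, but the check of units applied before testing did not accept this column (size factor 1.01), so it was kept out of the count tests. Promoter windows came from RefSeq (GRCm38.p6) and transcript lengths from GENCODE M21. The planned protein comparison was not made. Members, lists and the naming rule (all members, the called extremes of each pathway list, the 3 most alike genes) were chosen with earlier results of these data known.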

Additional observations from a re-analysis of the deposited data

How the results depend on the processing

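Dll1 stayed lower and called under the 14 alternatives that gave it an adjusted p (log2 change -1.27 to -0.89, adjusted p 0.00527 to 0.0366), with a range of -1.27 to -1.06 when 1 library was left out. All of these except the fit without a filter kept the filter that Dll1 passed through its vehicle values alone, so their agreement is not independent support. A filter of 50 removed Dll1, and DESeq2 on 5 libraries gave it no adjusted p. Jag1 stayed lower under all 16 (-0.15 to -0.12, adjusted p 0.0115 to 0.298), but was not called without vehicle replicate 2, DAPT replicate 2 or DAPT replicate 3 (log2 change -0.15 to -0.12 over the 6 libraries left out in turn), in edgeR (-0.14) or in DESeq2 (-0.14), both run without DAPT replicate 3. Notch1 (-0.098 to 0.0077), Notch2 (-0.018 to 0.129), Notch3 (-0.022 to 0.012), Notch4 (-0.108 to 0.141) and Jag2 (-0.027 to 0.162) changed sign when some 1 library was left out and passed under none of the alternatives. Notch4 also changed sign with quantile normalisation (0.0090), and the cause was not tested. Without DAPT replicate 3 Notch3 and Notch4 changed sign in limma (0.012 and 0.141), and likewise in the count tests, which lack that library too (Notch3 0.0098 in edgeR and 0.011 in DESeq2, Notch4 0.16 in edgeR). The count of called genes, 2703, was 982 in DESeq2 and 1864 to 2713 with 1 library left out. The 15 other pathway genes became 8 to 15 with 1 library left out, 8 in edgeR and 6 in DESeq2.

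With the longest coding transcript as length, vehicle levels per kilobase moved for Notch1 (289), Notch4 (2.75), Jag1 (218), Jag2 (38.0) and Dll1 (5.70). By construction so did the shares in vehicle and under DAPT of Notch1 (42.2% and 41.1%), Notch2 (23.3% and 24.4%), Notch3 (34.1% and 34.1%), Notch4 (0.403% and 0.398%), Jag1 (83.2% and 82.5%), Jag2 (14.5% and 16.5%) and Dll1 (2.18% and 1.00%). Deposited RPKM could not be tested, being 1 value per group.

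Same-numbered vehicle and DAPT libraries did not deviate together (correlations of 0.0267, -0.0175 and 0.00990), so the numbers were not taken as pairs. With the replicate block 2732 genes were called, Jag1 (adjusted p = 0.0244) and Dll1 (0.00836) among them. Depth limits Notch4, Dll1 and Dll4, with at most 61 reads per group.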
